A study of Mus musculus with 32 samples.

Results

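The 31 genes described here encode the steps that bring glucose into a cell and break it down: the glucose transporters *Slc2a1*, *Slc2a2*, and *Slc2a3*, the hexokinases *Hk1*, *Hk2*, and *Hk3*, every step of glycolysis down to pyruvate, the lactate dehydrogenases *Ldha* and *Ldhb*, the lactate transporters *Slc16a1* and *Slc16a3*, the enzymes and kinases that set the fate of pyruvate (*Pdha1*, *Pdk1*, *Pdk4*, and *Pcx*), and the glucose-6-phosphatase *G6pc2*. They form a list of named genes, and all 31 are among the 22850 genes of the expression table. The values are RNA-sequencing scores of 3 cell types sorted from mouse islets, namely β cells, CD31+ endothelial cells (ECs), and CD11b+ macrophages (MΦs). The animals, βVEGF-A; MIP-GFP mice, are on a C57BL/6 background and carry 3 transgenes: RIP-rtTA, in which the rat *Ins2* promoter drives the doxycycline (Dox)-responsive transactivator in β cells, TetO-VEGF-A, which encodes human VEGF-A, and MIP-GFP, in which the mouse *Ins1* promoter drives GFP in β cells. No Dox samples came from mice that never received Dox. Those of 1wk Dox followed 1 week of treatment, and those of 1wk WD were collected once Dox had then been withdrawn (WD) for 1 week. All groups, No Dox included, carried all 3 transgenes, and the animals were 8 to 16 weeks old when the experiments began, so that those of later time points were older at collection. β cells were sorted as GFP+ cells without CD31 or CD11b. Each sample pooled islets of several mice. In the order No Dox, then 1wk Dox, then 1wk WD, n was 4, 5, and 3 for β cells, 4, 1, and 5 for ECs, and 4, 2, and 4 for MΦs, which makes 32 samples. Whether separate samples of a group came from separate litters or sorting days is not given in the labels, so the p-values measure the spread between these samples only.

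Glucose enters cells through facilitative transporters of the Slc2a family. A hexokinase then traps it as glucose-6-phosphate, phosphofructokinase commits it to glycolysis, and pyruvate kinase releases pyruvate. Pyruvate is either reduced to lactate by lactate dehydrogenase and exported through a monocarboxylate transporter of the Slc16a family, or enters the mitochondria, where pyruvate dehydrogenase or pyruvate carboxylase uses it. Rodent β cells are known for a low-affinity route, in which uptake through Slc2a2 lets the glycolytic rate follow blood glucose, and for keeping genes such as *Ldha*, *Slc16a1*, and the high-affinity hexokinases nearly silent, so that pyruvate made elsewhere does not trigger insulin release. Endothelial cells and activated macrophages are known instead for high glycolytic flux with lactate export.

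The stretches of DNA just upstream of 6 of these genes are shown as examples of genes whose scores differ widely between β cell libraries: *Hk1*, *Hk2*, *Ldha*, and *Slc16a1*, which are lowest in the same 4 of the 12 libraries (4 of 31 members, beside 7.19% of all genes tested), and *Pkm2* and *Pcx*, which are highest in those 4 (2 of 31, beside 5.2%). With so few members beside such shares of all genes, the order is not taken as a feature of these genes. Each is the 250 bases before the most upstream start of the gene in RefSeq (build GRCm38.p6), written 5′ to 3′ on the strand of the gene. Capitals mark the letters ACGTG or their reverse complement CACGT, the core of the sites bound by hypoxia-inducible and other basic helix-loop-helix factors. The palindrome CACGTG holds both readings and counts as 1 place. The windows are chr10:62379909-62380158 on the minus strand for *Hk1*, chr6:82774455-82774704 on the minus strand for *Hk2*, chr7:46845554-46845803 on the plus strand for *Ldha*, chr3:104638414-104638663 on the plus strand for *Slc16a1*, chr9:59656326-59656575 on the plus strand for *Pkm2*, and chr19:4510222-4510471 on the plus strand for *Pcx*.
Hk1 upstream window: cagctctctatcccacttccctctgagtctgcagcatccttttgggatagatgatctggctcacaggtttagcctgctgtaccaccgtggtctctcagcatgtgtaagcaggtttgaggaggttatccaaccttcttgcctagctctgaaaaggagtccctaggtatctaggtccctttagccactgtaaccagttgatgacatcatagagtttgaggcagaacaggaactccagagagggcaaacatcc
Hk2 upstream window: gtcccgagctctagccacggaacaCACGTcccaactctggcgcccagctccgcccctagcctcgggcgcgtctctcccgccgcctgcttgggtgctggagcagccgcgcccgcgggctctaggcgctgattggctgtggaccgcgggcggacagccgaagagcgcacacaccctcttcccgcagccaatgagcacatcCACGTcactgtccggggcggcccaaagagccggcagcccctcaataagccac
Ldha upstream window: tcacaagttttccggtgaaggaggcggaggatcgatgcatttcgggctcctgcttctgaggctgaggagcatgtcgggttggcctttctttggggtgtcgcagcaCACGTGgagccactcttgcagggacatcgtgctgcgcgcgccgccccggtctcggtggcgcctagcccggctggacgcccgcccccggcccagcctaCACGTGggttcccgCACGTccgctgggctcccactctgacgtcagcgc
Slc16a1 upstream window: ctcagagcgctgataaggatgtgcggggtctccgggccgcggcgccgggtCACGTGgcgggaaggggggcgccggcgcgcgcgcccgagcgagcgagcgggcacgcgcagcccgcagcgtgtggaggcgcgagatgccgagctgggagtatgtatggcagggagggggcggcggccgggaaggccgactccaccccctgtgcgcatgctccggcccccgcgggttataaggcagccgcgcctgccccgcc
Pkm2 upstream window: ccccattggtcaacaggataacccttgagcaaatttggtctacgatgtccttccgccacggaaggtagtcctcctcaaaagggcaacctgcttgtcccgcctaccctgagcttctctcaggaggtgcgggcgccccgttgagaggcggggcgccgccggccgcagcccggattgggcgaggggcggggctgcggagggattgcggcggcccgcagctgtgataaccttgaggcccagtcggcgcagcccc
Pcx upstream window: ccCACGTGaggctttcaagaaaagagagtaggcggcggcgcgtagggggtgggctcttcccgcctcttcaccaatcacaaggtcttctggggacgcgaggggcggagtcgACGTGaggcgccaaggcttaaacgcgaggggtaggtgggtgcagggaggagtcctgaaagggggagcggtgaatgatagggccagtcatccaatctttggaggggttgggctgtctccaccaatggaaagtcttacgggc
Among the genes low in those libraries, the *Ldha* window held 3 places with these letters, that of *Hk2* 2, that of *Slc16a1* 1, and that of *Hk1* 0. Of the genes high in them, the *Pcx* window held 2 places and that of *Pkm2* 0, so the letters did not separate the genes low in these libraries from those high in them. Among the 30 members with a window, 11 held ACGTG or CACGT on either strand, against 16.5% of 27025 genes with a window of this length. CACGTG stood in 4 of the 30 (*Ldha*, *Slc16a1*, *Pfkm*, and *Pcx*), against 6.04% of all genes. A match describes letters only, and binding of a factor was not measured. RefSeq names *Pkm2* as *Pkm*, and no window was used for *Slc2a3*.

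Markers of the labelled cell type set the sorted cells apart from one another, but did not exceed those of other cells in every library. The mean log2(score + 1) of 7 β cell markers was 13.7 to 17.1 in β cells, 4.01 to 6.47 in ECs, and 5.23 to 10.1 in MΦs. That of 7 endothelial markers was 13.8 to 14.3 in ECs and at most 11.3 in the other cells, and that of 7 macrophage markers was 14.7 to 15.2 in MΦs and at most 9.07 elsewhere. In No Dox β cell replicate 4 the index of stromal markers was 14.9 and that of acinar markers 19.4, against 13.7 for β cell markers, and in 1wk WD β cell replicate 1 they were 14.8 and 15.5 against 14.4. The acinar index was also above that of the label in No Dox β cell replicate 3, No Dox EC replicate 2, and No Dox MΦ replicates 2 and 4. The 8 stromal and pericyte markers summed to scores of 954 and 1039 in No Dox β cell replicates 1 and 2, and to 147701 and 520610 in replicates 3 and 4. They summed to 104095 to 491195 in 1wk Dox β cells and 24382 to 353275 in 1wk WD β cells, and none of the 8 was at the lowest score in any of the 12 β cell libraries. The 7 acinar markers found in the table summed to 24440 to 10643405 in No Dox MΦs and 1020 to 3255 in 1wk Dox MΦs. A score is a TMM-normalized expression value that was deposited as a whole number, with 1 as its floor. The summed scores of the samples ran from 23465985 to 53441769, and the sequencing depth behind them is unknown.

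The library numbers at the head of the columns form 2 separate runs. The second holds 4 libraries, both 1wk Dox MΦs, the only 1wk Dox EC sample, and 1wk WD β cell replicate 3, and the first holds the other 28. What a run stands for is not given in the labels. In MΦs and ECs the second run and 1wk Dox hold the same samples, so they cannot be told apart within either cell type. For 5 members the libraries of the second run scored above all others of their cell type in each of the 3 cell types, beside 1.52% of all genes tested, and for 0 members they scored below, beside 0.471%. The 5 were *Gpi1*, *Tpi1*, *Gapdh*, *Eno1*, and *Pkm2*. *Gapdh* scored 3951 in 1wk WD β cell replicate 3 against 1067 to 2681 in the other β cells, 2309 in the 1wk Dox EC sample against 894 to 1679, and 3605 and 3252 in the 1wk Dox MΦs against 1229 to 2237. For *Eno1* the scores were 2961 against 595 to 1324 in β cells, 1203 against 573 to 784 in ECs, and 3252 and 2928 against 991 to 1766 in MΦs. The other 2 β cell libraries of 1wk WD scored 1082 and 1254 for *Gapdh* and 826 and 982 for *Eno1*.

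A gene was called where it changed at least 2-fold and its adjusted p, by limma on log2(score + 1) with Benjamini-Hochberg adjustment over all genes tested, was under 0.05. Between cell types, 24 of the 31 members were called in at least 1 of 6 comparisons, and 7 in none (*Gpi1*, *Pfkl*, *Aldoa*, *Gapdh*, *Pgk1*, *Pgam1*, and *Pdha1*). The share of all genes called in at least 1 was not computed, while each comparison alone called 33.5% to 46.2% of them. The count of 24 is therefore not taken as a feature of these genes. At No Dox, 18 of 31 members were called between β cells and ECs, 12 higher and 6 lower in β cells, where 37.7% of all genes tested were called. Between β cells and MΦs, 20 members were called, 10 in each direction, beside 43.2% of all genes. Between ECs and MΦs, 4 were called, all lower in ECs, beside 33.5% of all genes. At 1wk WD, the counts were 14 (9 higher and 5 lower in β cells) against ECs, beside 39.9% of all genes, 18 (9 in each direction) between β cells and MΦs, beside 46.2%, and 9 between ECs and MΦs (1 higher and 8 lower in ECs), beside 40.3%. The median log2 fold change of the members at No Dox was 0.69 for β cells against ECs, 0.34 for β cells against MΦs, and -0.25 for ECs against MΦs, beside 0.07, 0.12, and -0.01 over all genes tested. In bulk RNA, fewer cells of a type and less RNA per cell cannot be told apart.

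**Figure D1:**
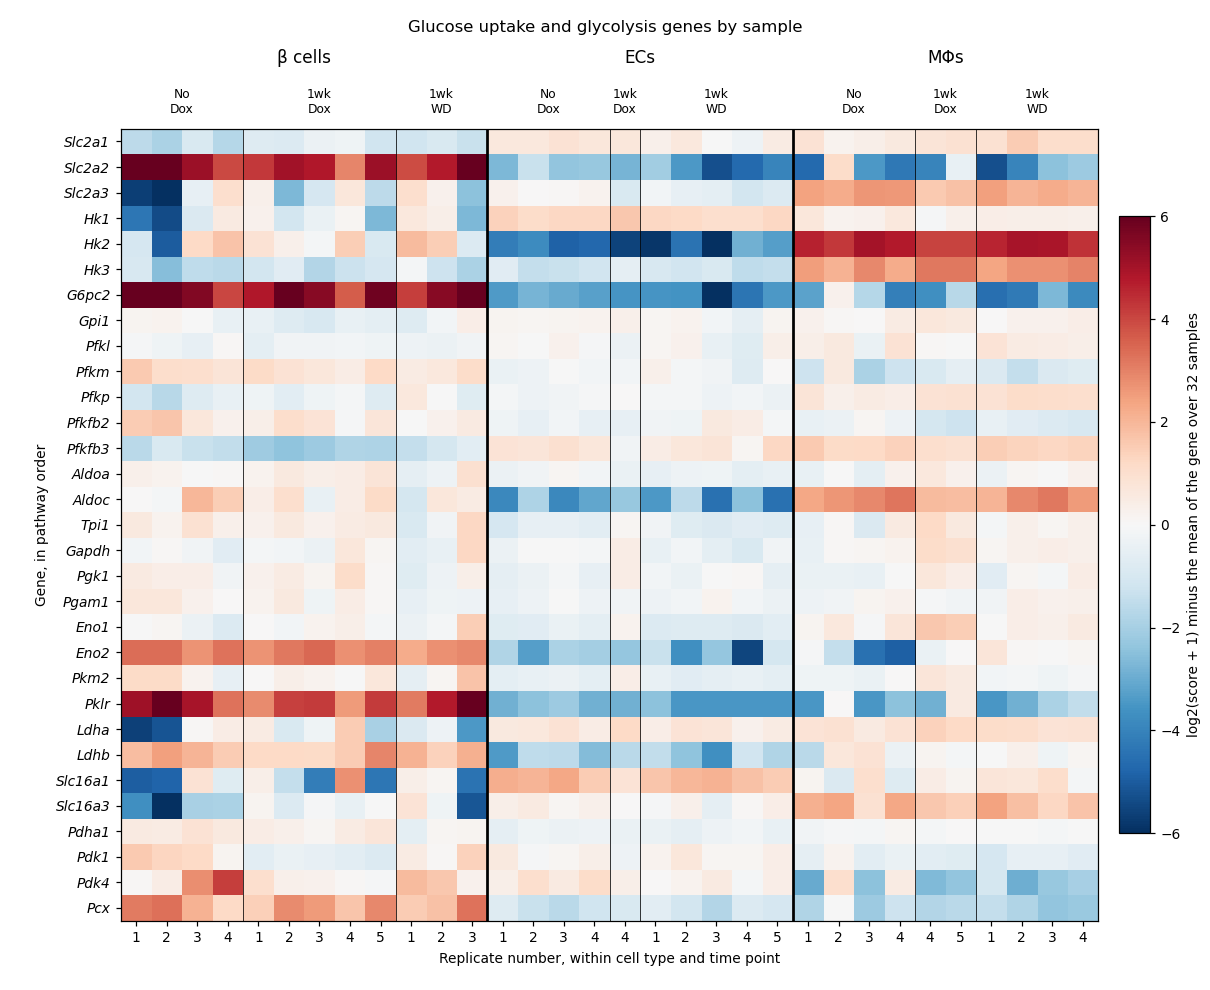
Heat map of the 31 genes (rows) in the 32 samples (columns, grouped by cell type and time point), coloured by log2(score + 1) minus the mean of the gene over all samples, with values beyond 6 in either direction drawn in the end colour. Slc2a2, G6pc2, Pklr, Eno2, and Pcx are high across the β cell columns, Hk2 and Hk3 across the MΦ columns, and the first 2 No Dox β cell columns are low for Hk1, Ldha, Slc2a3, and Slc16a1.

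The 3 glucose transporters divided the cell types. *Slc2a2* (ENSMUSG00000027690) lies at chr3:28596825-28627278 on the plus strand of mm9 and encodes the low-affinity transporter of rodent β cells. In β cells it scored 10657, 12515, 2705, and 1180 at No Dox, 1443, 2560, 2168, 578, and 2667 at 1wk Dox, with 1162, 2114, and 5399 at 1wk WD. ECs scored 11, 29, 14, and 15 at No Dox, 10 at 1wk Dox, with 17, 6, 1, 2, and 4 at 1wk WD. MΦs scored 2, 162, 6, and 3 at No Dox, 4 and 55 at 1wk Dox, with 1, 4, 13, and 16 at 1wk WD. No EC or MΦ sample reached the lowest β cell sample. The MΦ score of 162 came from No Dox replicate 2, which also scored 491 for *G6pc2* and 27471 for *Ins1*. *Slc2a2* was higher in No Dox β cells than in ECs (log2 fold change 8.05, SE 1.17, limma adjusted p = 1.53e-04) and than in MΦs (log2 fold change 8.71, SE 1.17, limma adjusted p = 7.21e-05). Near the lowest score such a fold change depends on the 1 added before taking logs.

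*Slc2a1* (ENSMUSG00000028645) lies at chr4:118781316-118809935 on the plus strand of mm9 and encodes the widespread high-affinity transporter. In β cells it scored 300, 240, 488, and 279 at No Dox, 530, 513, 716, 756, and 401 at 1wk Dox, with 390, 474, and 361 at 1wk WD. ECs scored 1394, 1422, 1650, and 1442 at No Dox, 1455 at 1wk Dox, with 1126, 1399, 899, 743, and 1292 at 1wk WD. MΦs scored 1661, 1051, 1166, and 1345 at No Dox, 1556 and 1712 at 1wk Dox, with 1729, 2574, 1908, and 1872 at 1wk WD. At No Dox it was lower in β cells than in ECs (log2 fold change -2.22, SE 0.22, limma adjusted p = 9.69e-06) and than in MΦs (log2 fold change -2.03, SE 0.22, limma adjusted p = 1.69e-05), and the ranges did not overlap.

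*Slc2a3* (ENSMUSG00000003153) lies at chr6:122677827-122751658 on the minus strand of mm9 and encodes a transporter of very high affinity. MΦs scored 2441, 2133, 2796, and 2777 at No Dox, 1352 and 1525 at 1wk Dox, with 2475, 1836, 2102, and 1837 at 1wk WD, and ECs scored 539, 464, 473, and 518 at No Dox, 239 at 1wk Dox, with 404, 316, 303, 211, and 258 at 1wk WD. β cells scored 8, 1, 318, and 902 at No Dox, 548, 68, 222, 730, and 150 at 1wk Dox, with 911, 540, and 80 at 1wk WD. It was lower in β cells than in MΦs at No Dox (log2 fold change -5.72, SE 1.51, limma adjusted p = 0.00701), while the comparison with ECs did not pass (log2 fold change -3.38, SE 1.51, limma adjusted p = 0.0837). The latter passed without No Dox β cell replicate 3 (-4.30, limma adjusted p = 0.0403) or replicate 4 (-4.80, limma adjusted p = 0.00732), with array weights (-4.93, limma adjusted p = 0.00068), and with quantile normalization (-3.69, limma adjusted p = 0.0481). At 1wk WD β cells and ECs were not called as different (log2 fold change 0.23, SE 0.57, limma adjusted p = 0.767), and without β cell replicate 3 β cells were called higher (1.26, limma adjusted p = 0.00151), the opposite of the direction at No Dox. ECs were below MΦs in every sample, yet the No Dox comparison did not pass (log2 fold change -2.34, SE 1.51, limma adjusted p = 0.243) in a fit that shares its spread with β cells. It passed with only these 2 groups in the fit (log2 fold change -2.34, limma adjusted p = 2.38e-07) and with array weights (-2.37, limma adjusted p = 0.0196). The 1wk WD comparison passed as well (log2 fold change -2.81, SE 0.53, limma adjusted p = 4.76e-04).

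The hexokinases differed between the cell types, each in its own way. *Hk2* (ENSMUSG00000000628) lies at chr6:82675019-82724448 on the minus strand of mm9 and encodes the inducible hexokinase bound to mitochondria. MΦs scored 7006, 5362, 9081, and 7624 at No Dox, 4670 and 4738 at 1wk Dox, with 6644, 8761, 8391, and 5793 at 1wk WD. ECs scored 15, 20, 9, and 10 at No Dox, 5 at 1wk Dox, with 4, 12, 1, 38, and 28 at 1wk WD. In β cells it scored 141, 8, 659, and 937 at No Dox, 513, 350, 264, 786, and 150 at 1wk Dox, with 1072, 788, and 161 at 1wk WD. All β cell samples were below every MΦ sample, and 11 of the 12 were above every EC sample. The exception, No Dox replicate 2 at 8, lay within the EC range of 1 to 38. ECs were lower than MΦs (log2 fold change -9.01, SE 1.13, limma adjusted p = 4.41e-05), and so were β cells (log2 fold change -5.41, SE 1.13, limma adjusted p = 0.00169). β cells were higher than ECs (log2 fold change 3.60, SE 1.13, limma adjusted p = 0.0205), but this call was lost without No Dox β cell replicate 3 (adjusted p = 0.0599), No Dox β cell replicate 4 (adjusted p = 0.0502), or No Dox EC replicate 3 (adjusted p = 0.0503).

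*Hk1* (ENSMUSG00000037012) lies at chr10:61731603-61842656 on the minus strand of mm9 and encodes the constitutive hexokinase. ECs scored 3693, 3063, 3399, and 3305 at No Dox, 4286 at 1wk Dox, with 3308, 3249, 2875, 2880, and 3307 at 1wk WD, and MΦs scored 2238, 1618, 1672, and 2231 at No Dox, 1349 and 1729 at 1wk Dox, with 1891, 1781, 1779, and 1730 at 1wk WD. In β cells it scored 69, 33, 770, and 2081 at No Dox, 1684, 658, 1081, 1554, and 215 at 1wk Dox, with 2167, 1815, and 221 at 1wk WD. It was lower in No Dox β cells than in ECs (log2 fold change -3.76, SE 1.02, limma adjusted p = 0.00948) and than in MΦs (log2 fold change -2.95, SE 1.02, limma adjusted p = 0.0281). The latter call was lost when any of No Dox β cell replicates 1 and 2 and No Dox MΦ replicates 1, 3, and 4 was left out, with adjusted p of 0.0502 to 0.082. At 1wk WD it was called lower in β cells than in ECs (log2 fold change -1.71, SE 0.54, limma adjusted p = 0.017), a call lost without 1wk WD β cell replicate 3 (log2 fold change -0.65, under 2-fold).

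*Hk3* (ENSMUSG00000025877) lies at chr13:55107346-55122746 on the minus strand of mm9 and encodes a hexokinase of myeloid cells. MΦs scored 2436, 1818, 3157, and 2035 at No Dox, 3798 and 3873 at 1wk Dox, with 2207, 2866, 2840, and 3355 at 1wk WD. β cells scored 222, 73, 149, and 137 at No Dox, 198, 264, 125, 174, and 214 at 1wk Dox, with 392, 181, and 114 at 1wk WD. ECs scored 269, 158, 166, and 192 at No Dox, 289 at 1wk Dox, with 221, 193, 224, 148, and 156 at 1wk WD. It was lower in β cells (log2 fold change -4.09, SE 0.34, limma adjusted p = 1.97e-06) and in ECs (log2 fold change -3.58, SE 0.34, limma adjusted p = 3.90e-06) than in MΦs at No Dox, and no β cell or EC sample reached the lowest MΦ sample, at 1818.

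*G6pc2* (ENSMUSG00000005232) lies at chr2:69049130-69065898 on the plus strand of mm9 and encodes the islet glucose-6-phosphatase, which turns the hexokinase reaction back. β cells scored 75802, 79537, 19700, and 6567 at No Dox, 11449, 30749, 18270, 5158, and 23641 at 1wk Dox, with 7366, 18345, and 36317 at 1wk WD. ECs scored 38, 58, 50, and 42 at No Dox, 34 at 1wk Dox, with 35, 33, 4, 19, and 37 at 1wk WD. MΦs scored 43, 491, 123, and 23 at No Dox, 31 and 130 at 1wk Dox, with 17, 21, 63, and 28 at 1wk WD. It was higher in No Dox β cells than in ECs (log2 fold change 9.29, SE 0.94, limma adjusted p = 9.82e-06) and than in MΦs (log2 fold change 8.37, SE 0.94, limma adjusted p = 1.87e-05). No β cell sample was below 5158, which is above every other sample.

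Of the phosphofructokinase subunits, *Pfkm*, the muscle-type subunit, scored 445 to 974 in β cells, 190 to 406 in ECs, and 86 to 480 in MΦs. It was higher in No Dox β cells than in MΦs (log2 fold change 2.06, SE 0.44, limma adjusted p = 0.00197) and than in ECs (log2 fold change 1.33, SE 0.44, limma adjusted p = 0.0262). The latter call was lost when any of No Dox β cell replicate 1 and No Dox EC replicates 1, 2, and 4 was left out, with adjusted p of 0.051 to 0.071. *Pfkp*, the platelet-type subunit, was lower in β cells than in MΦs (log2 fold change -1.47, SE 0.22, limma adjusted p = 1.62e-04), and *Pfkl*, the liver-type subunit, was called in no comparison of cell types, with scores of 446 to 1353 over all samples.

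*Pfkfb3* (ENSMUSG00000026773) lies at chr2:11393057-11423728 on the minus strand of mm9 and encodes an enzyme that makes fructose-2,6-bisphosphate, the activator of phosphofructokinase. β cells scored 1214, 1963, 1489, and 1323 at No Dox, 858, 686, 823, 1067, and 1033 at 1wk Dox, with 1369, 1761, and 2398 at 1wk WD. ECs scored 6598, 6078, 7331, and 5909 at No Dox, 3195 at 1wk Dox, with 4990, 5947, 6296, 4011, and 8682 at 1wk WD, and MΦs scored 10956, 8168, 8461, and 9767 at No Dox, 7545 and 6908 at 1wk Dox, with 10379, 9412, 8895, and 9230 at 1wk WD. Every β cell sample was below every sample of the other cells, with a log2 fold change of -2.13 (SE 0.16, limma adjusted p = 1.36e-06) against ECs and -2.65 (SE 0.16, limma adjusted p = 2.61e-07) against MΦs at No Dox. *Pfkfb2*, another enzyme of this kind, went the other way at No Dox, with a log2 fold change of 1.38 (SE 0.28, limma adjusted p = 0.00166) against ECs and 1.27 (SE 0.28, limma adjusted p = 0.00239) against MΦs. At 1wk WD its scores of 2265 to 3341 in β cells overlapped those of ECs, 1966 to 3443, and lay above those of MΦs, 1201 to 1715.

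Of the enzymes between phosphofructokinase and pyruvate kinase, *Aldoa*, *Gapdh*, *Pgk1*, and *Pgam1* were called in no comparison of cell types, and *Aldoc*, *Tpi1*, *Eno1*, and *Eno2* were called in some. *Aldoa*, the common aldolase, scored 1539 to 4489 over all samples. *Aldoc*, the brain-type aldolase, scored 160 to 400 in MΦs, 20 to 175 in β cells, and 1 to 14 in ECs. At No Dox it was higher in β cells than in ECs (log2 fold change 4.03, SE 0.62, limma adjusted p = 2.33e-04) and lower in ECs than in MΦs (log2 fold change -5.94, SE 0.62, limma adjusted p = 9.67e-06). β cells were also lower than MΦs (log2 fold change -1.92, SE 0.62, limma adjusted p = 0.0209), a call lost when any of No Dox β cell replicates 1 and 2 and No Dox MΦ replicate 4 was left out, with adjusted p of 0.055 to 0.0585. *Tpi1*, triosephosphate isomerase, was higher in No Dox β cells than in ECs (log2 fold change 1.16, SE 0.30, limma adjusted p = 0.00754), but by less than 2-fold with quantile normalization (0.88, limma adjusted p = 0.0201). *Aldoa*, *Tpi1*, *Gapdh*, *Pgk1*, *Pgam1*, *Eno1*, *Pkm2*, and *Ldha* have near-identical processed copies elsewhere in the genome, and how reads shared between copies were assigned is not stated, so their scores are uncertain to that extent.

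*Eno2*, the enolase of neurons and neuroendocrine cells, scored 424 to 996 in β cells, 1 to 42 in ECs, and 2 to 148 in MΦs. It was higher in No Dox β cells than in ECs (log2 fold change 5.45, SE 0.94, limma adjusted p = 5.46e-04) and than in MΦs (log2 fold change 5.91, SE 0.94, limma adjusted p = 2.52e-04). At 1wk WD it was again called against MΦs (log2 fold change 2.39, SE 0.86, limma adjusted p = 0.0298), a call lost when any of 1wk WD β cell replicates 2 and 3 and 1wk WD MΦ replicates 2, 3, and 4 was left out, with adjusted p of 0.0575 to 0.0726. *Eno1*, the common enolase, was called at 1wk WD as higher in β cells than in ECs (log2 fold change 1.12, SE 0.33, limma adjusted p = 0.0115), but not without 1wk WD β cell replicate 3 (log2 fold change 0.55, under 2-fold). It was also called as lower in ECs than in MΦs (log2 fold change -1.07, SE 0.30, limma adjusted p = 0.00855), but not without 1wk WD MΦ replicate 4 (log2 fold change -0.99, under 2-fold).

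*Pklr* (ENSMUSG00000041237) lies at chr3:88940064-88950706 on the plus strand of mm9 and encodes the liver-type pyruvate kinase. β cells scored 768, 1678, 687, and 212 at No Dox, 157, 387, 404, 129, and 413 at 1wk Dox, with 194, 613, and 1467 at 1wk WD. ECs scored 2, 3, 4, and 2 at No Dox, 2 at 1wk Dox, with 3, 1, 1, 1, and 1 at 1wk WD. MΦs scored 1, 22, 1, and 3 at No Dox, 2 and 31 at 1wk Dox, with 1, 2, 5, and 7 at 1wk WD. It was higher in No Dox β cells than in ECs (log2 fold change 7.49, SE 0.83, limma adjusted p = 2.02e-05) and than in MΦs (log2 fold change 7.23, SE 0.83, limma adjusted p = 2.26e-05).

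*Pkm2* (ENSMUSG00000032294) lies at chr9:59504383-59527182 on the plus strand of mm9 and encodes the widespread muscle-type pyruvate kinase. β cells scored 11321, 11180, 5903, and 3535 at No Dox, 5064, 6464, 5907, 4974, and 8133 at 1wk Dox, with 3446, 5531, and 16430 at 1wk WD. ECs scored 3342, 3692, 3984, and 3355 at No Dox, 6574 at 1wk Dox, with 3697, 3135, 3420, 3690, and 3392 at 1wk WD. MΦs scored 4219, 4207, 3863, and 5111 at No Dox, 8250 and 7331 at 1wk Dox, with 4565, 4629, 4163, and 4772 at 1wk WD. The No Dox difference between β cells and ECs stood at the threshold (log2 fold change 1.00, SE 0.31, limma adjusted p = 0.0195), and the call was lost without No Dox β cell replicate 1 (adjusted p = 0.0578), No Dox β cell replicate 2 (adjusted p = 0.0549), No Dox EC replicate 1 (log2 fold change 0.97, under 2-fold), or No Dox EC replicate 4 (log2 fold change 0.97, under 2-fold). That between β cells and MΦs did not pass (log2 fold change 0.73, SE 0.31, limma adjusted p = 0.0667), though it did without No Dox β cell replicate 4 (1.07, limma adjusted p = 0.00131), with array weights (1.01, limma adjusted p = 0.00448), and with quantile normalization (1.05, limma adjusted p = 0.01).

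*Ldha* (ENSMUSG00000063229) lies at chr7:54096845-54110997 on the plus strand of mm9 and encodes the lactate dehydrogenase subunit that favours lactate. β cells scored 37, 50, 1922, and 2496 at No Dox, 2621, 979, 1553, 5391, and 472 at 1wk Dox, with 1018, 1475, and 170 at 1wk WD. ECs scored 2770, 2844, 3381, and 2478 at No Dox, 4214 at 1wk Dox, with 2473, 3281, 3064, 2177, and 2615 at 1wk WD. MΦs scored 3261, 3497, 2653, and 3396 at No Dox, 4860 and 4162 at 1wk Dox, with 3921, 3894, 3268, and 3396 at 1wk WD. The β cell scores ran from far below the other cells to above all of them, with No Dox replicates 1 and 2 lowest. *Ldha* was called lower in No Dox β cells than in ECs (log2 fold change -3.20, SE 1.18, limma adjusted p = 0.0415) and than in MΦs (log2 fold change -3.36, SE 1.18, limma adjusted p = 0.0302). The first call was lost when any of No Dox β cell replicates 1 and 2 and No Dox EC replicates 1, 2, 3, and 4 was left out, with adjusted p of 0.0721 to 0.113. The other was lost when any of No Dox β cell replicates 1 and 2 and No Dox MΦ replicates 1, 2, 3, and 4 was left out, with adjusted p of 0.0527 to 0.0839. At 1wk WD *Ldha* was called lower in β cells than in ECs (log2 fold change -2.08, SE 0.50, limma adjusted p = 0.00343) and than in MΦs (log2 fold change -2.50, SE 0.52, limma adjusted p = 0.00109).

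*Ldhb* (ENSMUSG00000030246) lies at chr6:142438769-142456477 on the minus strand of mm9 and encodes the subunit that favours pyruvate. β cells scored 554, 859, 640, and 448 at No Dox, 359, 360, 345, 448, and 1172 at 1wk Dox, with 657, 399, and 677 at 1wk WD. ECs scored 14, 53, 52, and 25 at No Dox, 49 at 1wk Dox, with 55, 28, 11, 70, and 44 at 1wk WD. MΦs scored 50, 247, 285, and 122 at No Dox, 176 and 143 at 1wk Dox, with 151, 192, 128, and 168 at 1wk WD. Every β cell sample was above every other sample, with a log2 fold change at No Dox of 4.23 (SE 0.59, limma adjusted p = 1.14e-04) against ECs and 2.07 (SE 0.59, limma adjusted p = 0.0111) against MΦs, and ECs were lower than MΦs (log2 fold change -2.16, SE 0.59, limma adjusted p = 0.0108).

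*Slc16a1* (ENSMUSG00000032902) lies at chr3:104442591-104462385 on the plus strand of mm9 and encodes the monocarboxylate transporter MCT1. β cells scored 9, 10, 558, and 185 at No Dox, 391, 111, 16, 2053, and 14 at 1wk Dox, with 392, 333, and 13 at 1wk WD. ECs scored 1367, 1270, 1530, and 865 at No Dox, 541 at 1wk Dox, with 961, 1211, 1317, 1017, and 890 at 1wk WD, and MΦs scored 346, 166, 605, and 179 at No Dox, 415 and 345 at 1wk Dox, with 504, 492, 632, and 280 at 1wk WD. In β cells, 5 of the 12 libraries scored 16 or less, and 1wk Dox replicate 4 scored above every other sample of any cell type. It was lower in No Dox β cells than in ECs (log2 fold change -4.41, SE 1.12, limma adjusted p = 0.00662), and the comparison with MΦs did not pass (log2 fold change -2.28, SE 1.12, limma adjusted p = 0.105). It passed without No Dox β cell replicate 3 (-3.37, limma adjusted p = 0.00963), with array weights (-3.19, limma adjusted p = 0.0159), and with quantile normalization (-2.46, limma adjusted p = 0.0492).

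*Slc16a3* (ENSMUSG00000025161) lies at chr11:120809794-120822182 on the plus strand of mm9 and encodes MCT4, the lactate exporter of glycolytic cells. MΦs scored 612, 721, 268, and 706 at No Dox, 428 and 386 at 1wk Dox, with 759, 492, 334, and 463 at 1wk WD. ECs scored 182, 206, 154, and 174 at No Dox, 144 at 1wk Dox, with 133, 173, 97, 150, and 185 at 1wk WD. β cells scored 10, 1, 36, and 37 at No Dox, 157, 79, 135, 103, and 139 at 1wk Dox, with 248, 117, and 3 at 1wk WD. At No Dox every β cell sample was below every EC and MΦ sample (against ECs, log2 fold change -3.75, SE 0.81, limma adjusted p = 0.00236, and against MΦs, log2 fold change -5.34, SE 0.81, limma adjusted p = 1.69e-04). At 1wk WD the comparison with ECs did not pass (log2 fold change -1.57, SE 0.97, limma adjusted p = 0.194), though it did without 1wk WD β cell replicate 1 (-2.74, limma adjusted p = 0.0257) and with quantile normalization (-2.37, limma adjusted p = 0.0243).

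Among the genes that set the fate of pyruvate, *Pcx* (ENSMUSG00000024892) lies at chr19:4510472-4621752 on the plus strand of mm9 and encodes pyruvate carboxylase, the mitochondrial entry to the anaplerotic route. β cells scored 3113, 3539, 1513, and 826 at No Dox, 951, 2512, 2088, 1131, and 2651 at 1wk Dox, with 1042, 1225, and 3432 at 1wk WD. ECs scored 206, 142, 115, and 153 at No Dox, 186 at 1wk Dox, with 230, 165, 106, 204, and 178 at 1wk WD. MΦs scored 103, 348, 79, and 148 at No Dox, 105 and 114 at 1wk Dox, with 131, 100, 69, and 76 at 1wk WD. It was higher in No Dox β cells than in ECs (log2 fold change 3.67, SE 0.53, limma adjusted p = 1.37e-04) and than in MΦs (log2 fold change 3.74, SE 0.53, limma adjusted p = 9.94e-05). *Pdha1*, a subunit of pyruvate dehydrogenase, reached an adjusted p under 0.05 at No Dox without a 2-fold change, with a log2 fold change of 0.99 (SE 0.14, limma adjusted p = 1.02e-04) against ECs and 0.69 (SE 0.14, limma adjusted p = 0.00116) against MΦs. Against ECs it stood at the threshold and was called, at log2 fold changes of 1.00 to 1.04, with median-of-ratios scaling, with quantile normalization, and without No Dox β cell replicate 1, 2, or 4 or EC replicate 2 or 4.

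*Pdk1* (ENSMUSG00000006494) lies at chr2:71711281-71741915 on the plus strand of mm9 and encodes a kinase that inhibits pyruvate dehydrogenase. β cells scored 2632, 2158, 2025, and 991 at No Dox, 557, 657, 614, 565, and 497 at 1wk Dox, with 1240, 928, and 2255 at 1wk WD. ECs scored 1330, 840, 939, and 1110 at No Dox, 716 at 1wk Dox, with 1006, 1397, 960, 938, and 1176 at 1wk WD, and MΦs scored 610, 1022, 567, and 666 at No Dox, 562 and 534 at 1wk Dox, with 433, 633, 627, and 543 at 1wk WD. It was higher in No Dox β cells than in MΦs (log2 fold change 1.40, SE 0.30, limma adjusted p = 0.00192). At 1wk WD the call against MΦs (log2 fold change 1.31, SE 0.28, limma adjusted p = 0.00116) was lost without 1wk WD β cell replicate 3 (log2 fold change 0.95, under 2-fold).

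*Pdk4* (ENSMUSG00000019577) lies at chr6:5433351-5446309 on the minus strand of mm9 and encodes the pyruvate dehydrogenase kinase induced by fasting and fatty acids. β cells scored 172, 222, 1131, and 2973 at No Dox, 330, 204, 199, 174, and 155 at 1wk Dox, with 606, 502, and 198 at 1wk WD. ECs scored 209, 336, 242, and 352 at No Dox, 213 at 1wk Dox, with 166, 190, 238, 152, and 220 at 1wk WD, and MΦs scored 19, 327, 29, and 231 at No Dox, 25 and 31 at 1wk Dox, with 78, 21, 33, and 41 at 1wk WD. The score of 2973 came from No Dox β cell replicate 4, the library richest in stromal markers. *Pdk4* was called higher in No Dox β cells than in MΦs (log2 fold change 2.87, SE 1.04, limma adjusted p = 0.0349), a call lost when any of No Dox β cell replicates 3 and 4 and No Dox MΦ replicates 1 and 3 was left out, with adjusted p of 0.0847 to 0.104. At 1wk WD it was higher than in MΦs in β cells (log2 fold change 3.31, SE 0.49, limma adjusted p = 6.73e-05) and in ECs (log2 fold change 2.27, SE 0.43, limma adjusted p = 5.16e-04).

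Ratios of isoforms within a sample, in which the scaling of that sample cancels, were compared without a test. The log2 ratio of *Hk2* to *Hk1* was -2.04 to 1.03 in β cells, -11.49 to -6.24 in ECs, and 1.45 to 2.44 in MΦs, so that no cell type overlapped another. That of *Slc2a2* to *Slc2a1* was -0.39 to 5.70 in β cells, -9.81 to -5.62 in ECs, and -10.76 to -2.70 in MΦs, with β cells apart from both. β cells also stood apart from both for *Pklr* to *Pkm2* (-5.27 to -2.74 in β cells, -11.85 to -9.96 in ECs, and -12.16 to -7.58 in MΦs). The same held for *Eno2* to *Eno1*, at -2.14 to 0.54, -9.16 to -4.02, and -9.79 to -2.79, and for *Pfkm* to *Pfkl*, at -0.61 to 0.52, -1.74 to -0.98, and -3.30 to -1.25. MΦs and ECs, on the other hand, separated for *Slc2a3* to *Slc2a1*, with -2.61 to -1.37 in ECs and -0.49 to 1.26 in MΦs. The ratio of *Hk3* to *Hk1* was -4.41 to -3.68 in ECs and -0.13 to 1.49 in MΦs, and that of *Slc16a3* to *Slc16a1* was -3.76 to -1.91 and -1.18 to 2.12. The ratio of *Aldoc* to *Aldoa* was -10.91 to -7.07 in ECs, -6.60 to -3.72 in β cells, and -4.50 to -2.26 in MΦs, where β cells overlapped MΦs only. The ratio of *Ldhb* to *Ldha* was -3.59 to 4.10 in β cells, -8.12 to -4.96 in ECs, and -6.03 to -3.22 in MΦs, and the wide β cell range overlapped MΦs. *Pfkp* to *Pfkl* overlapped between all 3 cell types.

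**Figure D2:**
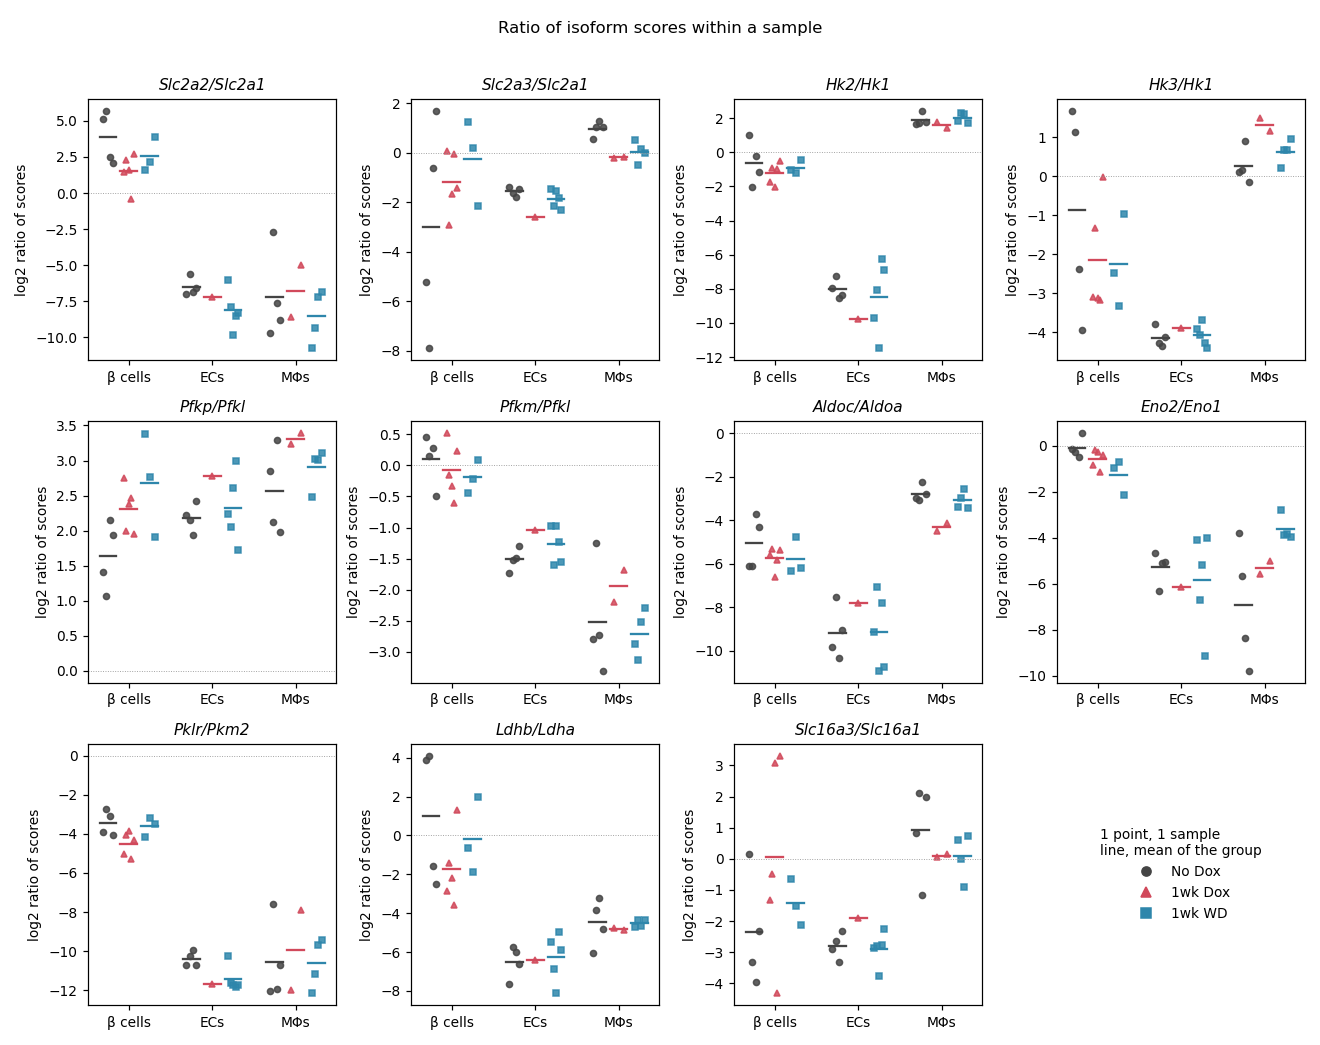
Log2 ratio of the scores of 11 isoform pairs (panels) in each sample (points), grouped by cell type and time point, with lines at the group means. The 3 cell types occupy separate bands for Hk2 to Hk1, and β cells lie above the others for Slc2a2 to Slc2a1, Pklr to Pkm2, and Eno2 to Eno1.

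Across time, VEGF-A induction and its withdrawal left no called change among these genes in β cells. None of the 31 members was called at 1wk Dox against No Dox, beside 0.0122% of all genes tested, at 1wk WD against No Dox, beside 0%, or at 1wk WD against 1wk Dox, beside 0% (limma). At an unadjusted p under 0.05 with a 2-fold change there were 2, 0, and 2 members in these comparisons, and 660, 727, and 471 genes in all. The median log2 fold change of the members was -0.15, -0.11, and 0.05, beside 0.03, 0.06, and 0.05 over all genes. The member with the smallest unadjusted p at 1wk Dox was *Pdk1*. Its 5 scores at 1wk Dox, 497 to 657, were all below the 4 at No Dox, 991 to 2632, and the 3 at 1wk WD, 928 to 2255 (log2 fold change -1.67, SE 0.31, limma adjusted p = 0.25). *Slc16a3* scored 79 to 157 at 1wk Dox and 1 to 37 at No Dox (log2 fold change 3.18, SE 1.19, limma adjusted p = 0.64), also without overlap. Markers of other cells moved between the same groups: the acinar index was 3.74 to 10.4 in the 1wk Dox β cells and 11.6 to 20.03 at No Dox, without overlap, and the endothelial index was 5.89 to 11.3 against 6.33 to 7.89, with 1wk Dox replicates 1 to 3 above all of No Dox. The part of acinar or endothelial RNA in these scores was not tested.

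The β cell libraries differed in these genes within a time point. When the 12 libraries were ordered by the mean log2(score + 1) of the 8 stromal markers, the lowest were No Dox replicates 2 and 1 at 4.48 and 5.47, 1wk WD replicate 3 at 10.7, which is also the β cell library of the second run of numbers, and 1wk Dox replicate 5 at 12.6, and the other 8 lay between 13.4 and 14.9. This order was examined after the scores had been seen, and is a description. The 4 libraries of lowest index were also the 4 lowest for *Hk1* (33 to 221, against 658 to 2167 in the other 8), *Hk2* (8 to 161, against 264 to 1072), *Ldha* (37 to 472, against 979 to 5391), and *Slc16a1* (9 to 14, against 16 to 2053). These are 4 of 31 members, beside 7.19% of all genes tested. The same libraries were the 4 highest for *Pkm2* (8133 to 16430, against 3446 to 6464) and *Pcx* (2651 to 3539, against 826 to 2512), 2 of 31 members beside 5.2% of all genes. *Slc2a2* was highest in the 2 No Dox libraries among them, at 10657 and 12515, and scored 5399 and 2667 in the others, against 578 to 2705 in the other 8. Each time point held at least 1 of the 4 libraries. Markers of other cells also differed: the acinar index was 15.92 and 11.645 in No Dox replicates 1 and 2 and 20.03 and 19.38 in replicates 3 and 4, and the β cell index was 17.03 and 16.84 against 15.01 and 13.74. The part of stromal or acinar RNA in these scores was not tested.

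The comparison with No Dox depended on these libraries, in 2 fits added after the data were seen. Without No Dox replicates 3 and 4, the libraries rich in stromal markers, 5 members were called at 1wk Dox: *Hk1* (log2 fold change 4.10, limma adjusted p = 0.0239), *Ldha* (5.18, adjusted p = 0.00658), *Slc2a3* (5.87, adjusted p = 0.00917), *Slc2a2* (-2.80, adjusted p = 0.0213), and *Pdk1* (-2.05, adjusted p = 0.00301). In the same fit 1199 genes were called in all. The fit with all β cell libraries tested 16346 genes. At 1wk WD against No Dox that fit called 6 members: *Hk1*, *Pfkp*, *Ldha*, and *Slc2a3* as higher, and *Pfkfb2* and *Pgam1* as lower, among 1424 genes. The index of macrophage markers was 8.21 to 9.07 in the 1wk WD β cells and 4.52 to 8.09 at No Dox, without overlap. The part of macrophage RNA in these scores was not tested. Without No Dox replicates 1 and 2, which were poor in stromal markers, *Pdk4* was the only member called at 1wk Dox (log2 fold change -3.16, limma adjusted p = 0.0283), among 80 genes called in all. The log2 fold change of *Hk1* at 1wk Dox ranged from -0.60 to 4.10 over the 23 alternatives to the fit.

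**Figure D3:**
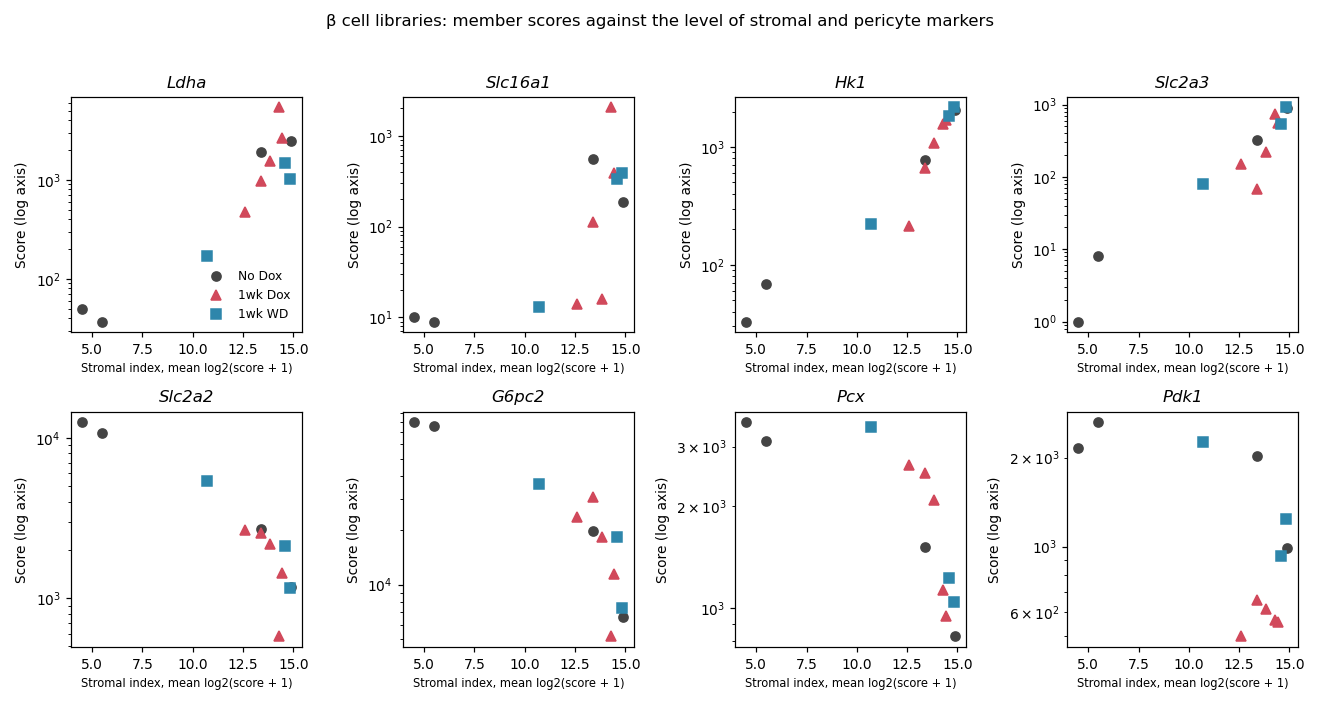
Scores of 8 genes (panels, log axis) against the mean log2(score + 1) of 8 stromal markers in the 12 β cell libraries, with colours for the time points. The 2 No Dox libraries at the left of each panel have the lowest Ldha scores and the highest Slc2a2 scores, and all 5 scores of Pdk1 at 1wk Dox, 497 to 657, lie below those of the other time points.

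In ECs, 0 of the 27 members tested were called at 1wk WD against No Dox (limma), beside 1.76% of all genes tested. The other 4, *Hk2*, *Aldoc*, *Pklr*, and *Slc2a2*, had mean scores under 20 in both groups. At an unadjusted p under 0.05 with a 2-fold change there were 0 members and 678 genes. *Slc2a3* reached an adjusted p under 0.05 with less than a 2-fold change (log2 fold change -0.77, SE 0.19, limma adjusted p = 0.0442), and all 5 scores at 1wk WD (211 to 404) were below the 4 at No Dox (464 to 539). Between the same groups the stromal index was 7.43 to 9.36 at 1wk WD and 6.33 to 7.31 at No Dox, without overlap, and the acinar index 4.75 to 12.4 against 12.2 to 17.03, and the part of stromal or acinar RNA was not tested. The log2 fold change of *Slc2a1* was -0.47 (SE 0.17, limma adjusted p = 0.15) and that of *Pfkfb2* 0.43 (SE 0.18, limma adjusted p = 0.183). The median of the members was -0.11, beside 0.003 over all genes.

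The only EC sample of 1wk Dox has no replicate, so its values are a description. Of the 26 members that passed the filter on low scores (a mean of 20 in either group), 3 differed by 2-fold or more from the No Dox mean, all lower, beside 10.7% of all genes, and 18 lay outside the No Dox range, as did 62.1% of all genes. The 3 were *Slc16a1*, which scored 541 against 865 to 1530 at No Dox, *Slc2a3*, which scored 239 against 464 to 539, and *Pfkfb3*, which scored 3195 against 5909 to 7331. This sample belongs to the second run of library numbers, and the 5 members named above as highest in that run are among the 18. The acinar markers summed to 203 in this sample and 59313 to 1596342 in the No Dox ECs, and the part of acinar RNA in these differences was not tested.

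**Figure D4:**
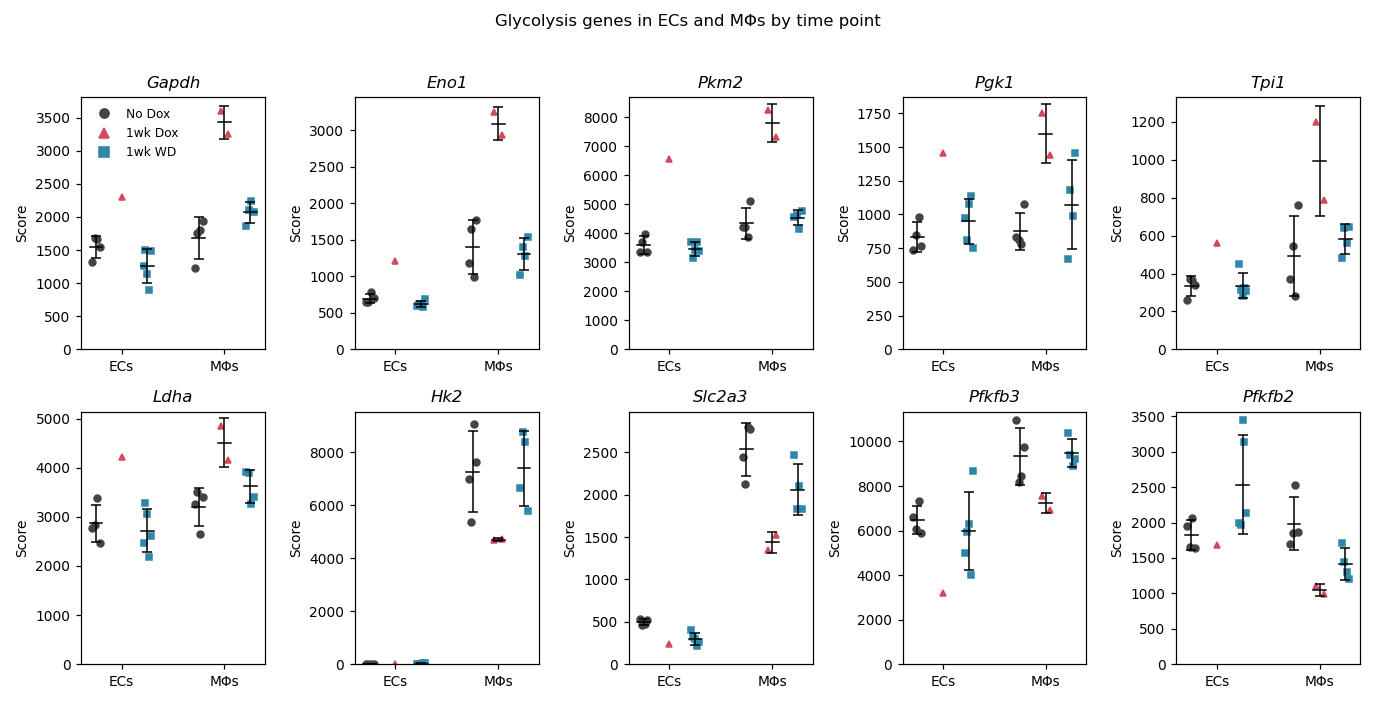
Scores of 10 genes (panels) in each EC and MΦ sample (points) by time point, with the mean and SD of each group (the EC group under Dox is 1 sample, without SD). The 2 MΦ samples at 1wk Dox have the highest Gapdh scores (3605 and 3252) and Eno1 scores (3252 and 2928) and the lowest Slc2a3 scores (1352 and 1525) of the MΦs, and they and the 1wk Dox EC sample are the libraries of the second run of numbers.

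Members were called over time in MΦs, in a comparison of 1wk Dox with No Dox that is also one of the second run of library numbers with the first. At 1wk Dox against No Dox, 2 of the 30 members tested were called, *Gapdh* and *Eno1*, both higher, beside 2.26% of all genes tested. *Pklr* had a mean score under 20 in every MΦ group. *Gapdh* (ENSMUSG00000057666) lies at chr6:125111871-125116485 on the minus strand of mm9 and encodes glyceraldehyde-3-phosphate dehydrogenase. MΦs scored 1229, 1762, 1807, and 1944 at No Dox, 3605 and 3252 at 1wk Dox, with 1857, 2103, 2237, and 2078 at 1wk WD, and both 1wk Dox samples were above all others (log2 fold change 1.04, SE 0.19, limma adjusted p = 0.0115). *Eno1* (ENSMUSG00000063524) lies at chr4:149610830-149622988 on the plus strand of mm9, and MΦs scored 1176, 1647, 991, and 1766 at No Dox, 3252 and 2928 at 1wk Dox, with 1020, 1396, 1282, and 1533 at 1wk WD, again with both 1wk Dox samples highest (log2 fold change 1.19, SE 0.24, limma adjusted p = 0.02). Both calls rest on few libraries. Without 1wk Dox replicate 4 the adjusted p was 0.329 for *Gapdh* and 0.398 for *Eno1*, and without 1wk Dox replicate 5 it was 0.0745 and 0.107. In these fits the remaining 1wk Dox sample is assumed to vary like the other groups. Without No Dox replicate 1 *Gapdh* changed by less than 2-fold (log2 fold change 0.90, limma adjusted p = 0.0175). Neither gene was called without the variance trend (adjusted p = 0.0565 and 0.0760 by limma) or with only these 2 groups in the fit (adjusted p = 0.0767 and 0.0813). With array weights both were called and *Eno2* was called as well (log2 fold change 2.72, limma adjusted p = 0.0457), beside 4.74% of all genes. In all of these fits *Gapdh* and *Eno1* stayed higher at 1wk Dox. In a fit added after the data were seen, with all 32 samples and the run of library numbers as a term, both turned lower, *Gapdh* with a log2 fold change of -0.72 (limma adjusted p = 0.375) and *Eno1* with -0.53 (limma adjusted p = 0.499). The run could be estimated there from 1 library, 1wk WD β cell replicate 3, which also differs from its group in stromal markers. That fit called 1 member among 263 genes, *Slc16a3*, with a fitted log2 fold change of 5.02 (limma adjusted p = 0.0374) that goes against the MΦ scores themselves, which were 428 and 386 at 1wk Dox and 268 to 721 at No Dox. Its sign comes from the run term, since *Slc16a3* scored 3 in the β cell library that sets it, and it is not a rise in MΦs. Whether *Gapdh* and *Eno1* changed with Dox or with the run cannot be told apart here.

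Another 3 members reached an adjusted p under 0.05 with less than a 2-fold change in MΦs at 1wk Dox. *Pkm2* was higher (log2 fold change 0.85, SE 0.14, limma adjusted p = 0.0101), with scores of 8250 and 7331 against 4219, 4207, 3863, and 5111 at No Dox. *Slc2a3* was lower (log2 fold change -0.81, SE 0.17, limma adjusted p = 0.0244), with scores of 1352 and 1525 against 2441, 2133, 2796, and 2777. *Pfkfb2* was lower as well (log2 fold change -0.91, SE 0.20, limma adjusted p = 0.0254). *Tpi1*, the step before *Gapdh*, passed only without No Dox replicate 4 (log2 fold change 1.33, limma adjusted p = 0.0358). With all samples the log2 fold change was 1.08 (SE 0.35, limma adjusted p = 0.0939) for *Tpi1* and, at other steps, 0.87 (SE 0.27, limma adjusted p = 0.0854) for *Pgk1*, and 0.50 (SE 0.16, limma adjusted p = 0.087) for *Ldha*. For the hexokinases it was -0.60 (SE 0.21, limma adjusted p = 0.123) for *Hk2* and 0.73 (SE 0.22, limma adjusted p = 0.074) for *Hk3*. Over all 30 members the median was 0.18, beside 0.04 over all genes. The mean log2(score + 1) of the acinar markers was 5.95 and 8.27 in the 1wk Dox MΦs and 11.5 to 19.7 at No Dox. In 1wk WD replicates 1 to 4 it was 14.1, 7.49, 7.28, and 6.71, and these libraries scored 1857, 2103, 2237, and 2078 for *Gapdh* and 1020, 1396, 1282, and 1533 for *Eno1*. The endothelial index was 6.88 and 6.93 in the 1wk Dox MΦs, 4.905 to 6.07 at No Dox, and 5.045 to 7.02 at 1wk WD. The part of acinar or endothelial RNA in these scores was not tested.

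No member was called in MΦs after withdrawal. At 1wk WD against No Dox 0 of 30 members were called, beside 0.626% of all genes, and at 1wk WD against 1wk Dox 0 were called, beside 0.0866% (limma). At an unadjusted p under 0.05 with a 2-fold change there was 1 member in each comparison, *Eno2* in the former (log2 fold change 2.97, SE 0.92, limma adjusted p = 0.125) and *Eno1* in the latter (log2 fold change -1.25, SE 0.24, limma adjusted p = 0.0974). There were 746 and 273 such genes in all. *Eno1* passed against 1wk Dox when No Dox replicate 3 was left out (log2 fold change -1.25, limma adjusted p = 0.0343). It also passed with array weights (-1.19, limma adjusted p = 2.74e-04) and with only the 2 groups in the fit (-1.25, limma adjusted p = 0.0249). The run of library numbers separates 1wk WD from 1wk Dox too. Within MΦs the log2 ratio of *Slc2a3* to *Slc2a1* was highest at No Dox, with 0.97 ± 0.30 (SD, n = 4). It was -0.18 ± 0.03 (SD, n = 2) under Dox and 0.04 ± 0.42 (SD, n = 4) after its withdrawal. The No Dox samples did not overlap the others, but the lowest of them, at 0.555, was close to the highest 1wk WD sample, at 0.517. The ratio of *Hk3* to *Hk1* was 0.27 ± 0.45 (SD, n = 4), 1.33 ± 0.23 (SD, n = 2), and 0.64 ± 0.30 (SD, n = 4) at the same time points in order, and the 1wk Dox samples lay above the rest. These ratios were not tested.

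**Figure D5:**
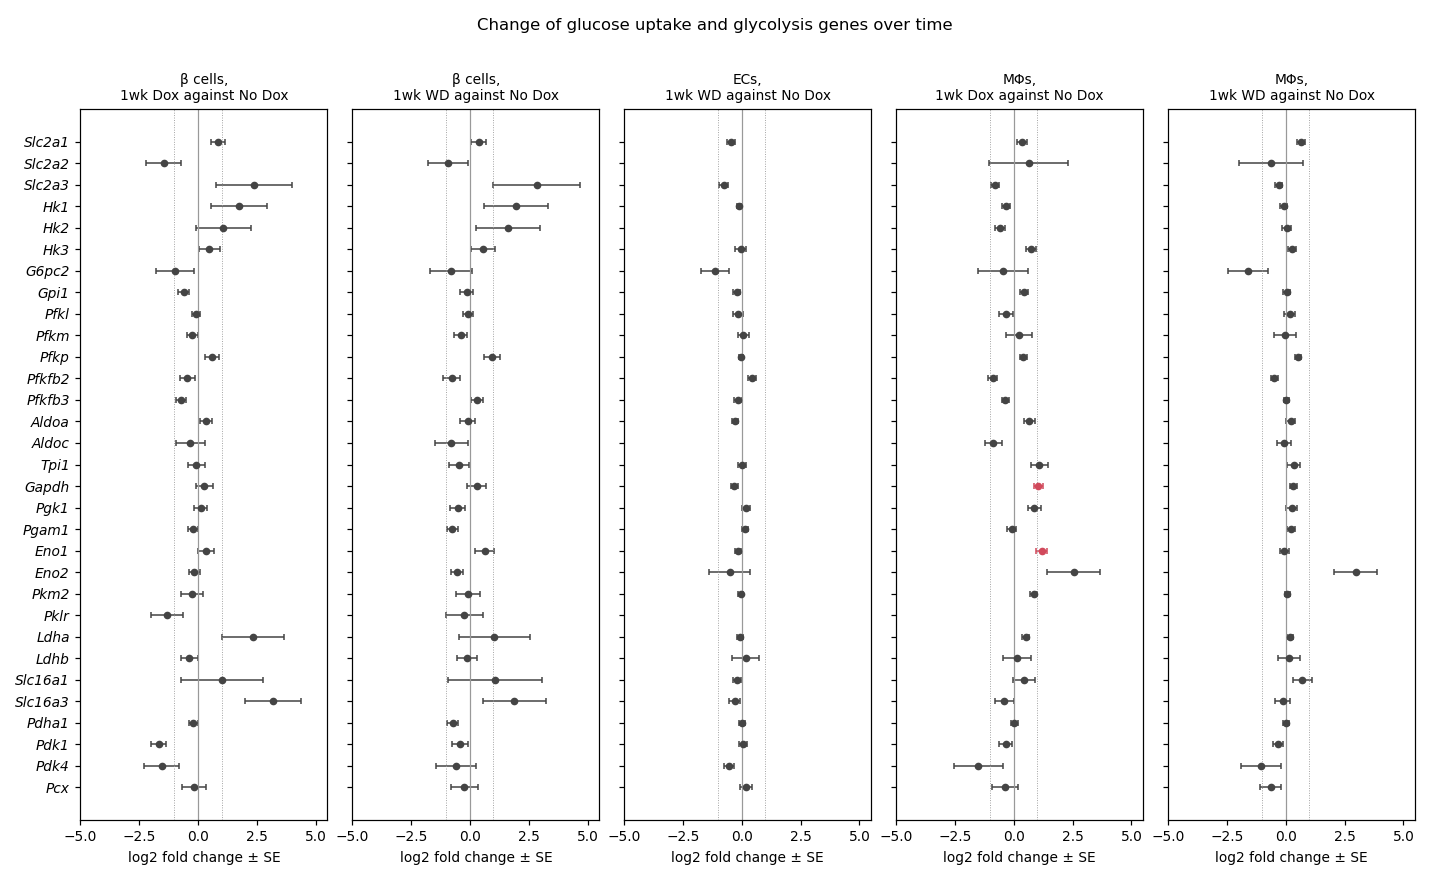
Log2 fold change with its standard error for each gene (rows) in 5 comparisons of time points (panels), with called genes in red. The called genes are Gapdh and Eno1 in MΦs at 1wk Dox, and 4 genes in ECs and 1 in MΦs that were not tested have no point. Dotted lines mark a 2-fold change.

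Whether the response of a gene differed between cell types was tested directly. None of the 31 members was called in any of 4 such comparisons (limma over all 32 samples). Between ECs and β cells at 1wk WD against No Dox, 0 were called, beside 0.383% of all genes. Between MΦs and β cells it was 0 beside 0.0413%, between ECs and MΦs 0 beside 0.265%, and between MΦs and β cells at 1wk Dox against No Dox 0 beside 0.0354%. At an unadjusted p under 0.05 with a 2-fold difference there were 2, 1, 2, and 6 members in these comparisons, and 1483, 1225, 989, and 813 genes. The changes of *Gapdh* and *Eno1* in MΦs at 1wk Dox were not called as different from those in β cells, where the log2 fold change was 0.26 (SE 0.36, limma adjusted p = 0.907) for *Gapdh* and 0.33 (SE 0.34, limma adjusted p = 0.867) for *Eno1*. β cells scored 1519, 1755, 1480, and 1067 at No Dox, 1552, 1497, 1321, 2681, and 1819 at 1wk Dox, with 1082, 1254, and 3951 at 1wk WD for *Gapdh* and 1034, 1140, 816, and 595 at No Dox, 1056, 944, 1220, 1324, and 983 at 1wk Dox, with 826, 982, and 2961 at 1wk WD for *Eno1*. ECs scored 1321, 1679, 1669, and 1543 at No Dox, 2309 at 1wk Dox, with 1263, 1500, 1142, 894, and 1483 at 1wk WD for *Gapdh* and 641, 647, 784, and 706 at No Dox, 1203 at 1wk Dox, with 593, 622, 611, 573, and 682 at 1wk WD for *Eno1*. With array weights the difference passed for *Gapdh* (1.00 on the log2 scale, limma adjusted p = 0.0458), and 8 members were called among 993 genes. Array weights also gave calls among members in both comparisons with β cells at 1wk WD, and their counts are given in the closing section.

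Another 50 genes of glucose and pyruvate metabolism that are in the table, among them gluconeogenic enzymes, further transporters, and the other subunits of pyruvate dehydrogenase, were tested in the same fits. Over time, in β cells 0 of 48 tested were called in each of 3 comparisons, beside 0.0122%, 0%, and 0% of all genes tested. In ECs it was 0 of 42, beside 1.76%. In MΦs 0 of 44 were called at 1wk Dox against No Dox and at 1wk WD against 1wk Dox (limma), beside 2.26% and 0.0866%. At an unadjusted p under 0.05 with a 2-fold change there were 2, 2, and 1 in β cells, 0 in ECs, and 1 in each MΦ comparison. At 1wk WD against No Dox 1 of 44 was called in MΦs, beside 0.626% of all genes: *Pfkfb1*, a fructose-2,6-bisphosphate enzyme. It scored 662, 550, 406, and 393 at No Dox and 262, 180, 198, and 249 at 1wk WD (log2 fold change -1.16, SE 0.25, limma adjusted p = 0.0463). This call was lost without No Dox replicate 1, 2, or 4, either 1wk Dox replicate, or 1wk WD replicate 2, 3, or 4, with adjusted p of 0.0514 to 0.155. Between cell types at No Dox, 18 of 49 were called between β cells and ECs (12 higher and 6 lower in β cells), beside 37.7% of all genes. It was 22 between β cells and MΦs (16 higher and 6 lower), beside 43.2%, and 13 between ECs and MΦs (7 higher and 6 lower in ECs), beside 33.5%. At 1wk WD the counts were 18, 20, and 16 of 44, beside 39.9%, 46.2%, and 40.3% of all genes.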

How the data were processed

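RNA of sorted β cells, ECs, and MΦs was amplified (NuGEN Ovation) and sequenced as 50 bp paired-end reads. Per the labels and the methods of the study, the authors mapped reads to mm9 with TopHat2 (version 2.0) and computed TMM-normalized gene scores in Avadis NGS. The deposited scores are whole numbers with a floor of 1, so they are not read counts, and the depth of each sample is unknown. How multi-mapping reads were treated and which annotation was used are not given in the sources used here. TMM assumes that most genes do not differ between samples, which is less secure between cell types than between time points.

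Groups followed the labels. The table held 38 sample columns, of which 6 (1wk Dox ECs and MΦs without a matching sample here) were not used. No pair of samples held identical scores. Genes whose mean score reached 20 in 1 or more groups of a fit were tested on log2(score + 1) with limma (version 3.58.1, R 4.3.3, trended variance, two-sided), in 1 fit per cell type over time, 1 per time point over cell types, and 1 over all 9 groups for differences of responses. Calls needed a Benjamini-Hochberg adjusted p under 0.05 over all genes tested and a 2-fold change. The study's own test on z-scores was not repeated. Fold changes on this scale understate those of genes with low scores. Tables were made with Python 3.11.15, pandas 2.3.3, and numpy 2.4.6, and figures with matplotlib 3.10.9. The procedure was tested on simulated data.

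The members, the other pathway genes, and the marker lists were chosen with earlier results of these data known. Scores are given for every sample for 17 genes fixed by name and for each member called over time, other members by range and counts, and other pathway genes by counts and, where called over time, by name. mm9 positions were deposited with the scores and were the same in GENCODE M1, and upstream windows came from RefSeq (GRCm38.p6). Alternatives were a pseudocount of 20, no filter or a minimum of 200, other scalings, no trend, array weights, the replicate number as a block, only the groups compared, and each replicate left out. Fits chosen after the data were seen left out pairs of No Dox β cell libraries or added the run of library numbers as a term.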

Additional observations from a re-analysis of the deposited data

Results flagged for a closer look

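In groups of 4 or 5 samples, 114 sets of scores were examined for a sample far from the others, of which chance would single out about 1 in 20. Only 3 were. *Ldhb* scored 1172 in 1wk Dox β cell replicate 5, against 345 to 448 in the other 4 samples of that group. *Slc16a3* scored 268 in No Dox MΦ replicate 3, against 612 to 721 in the others. *Pklr* scored 3 in 1wk WD EC replicate 1 and 1 in the other 4, which is at the floor of the scores.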

How the results depend on the processing

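Of 83 calls between cell types, 61 held under every alternative and 0 changed direction. The 2 calls over time were each lost under some. In MΦs at 1wk Dox against No Dox, the 2 members called became 3 with array weights, 1 with no filter on low scores, and 0 with no trend, with the replicate block, or with only the 2 groups compared, and 0 to 3 when 1 replicate was left out. With the run of library numbers as a term the count was 1, a different gene (*Slc16a3*, 5.02, against the direction of its MΦ scores), and *Gapdh* and *Eno1* turned to log2 fold changes of -0.72 and -0.53 (limma adjusted p = 0.375 and 0.499). For 1wk WD against 1wk Dox in MΦs, 0 became 1 with array weights or only the 2 groups (*Eno1*), and 1 with the run as a term (again *Slc16a3*). It was 0 to 1 without 1 replicate (1, *Eno1*, without No Dox replicate 3). Between ECs and MΦs at No Dox, 4 became 8 with array weights and 7 with only the 2 groups, where 38% and 39.6% of all genes were called.

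In β cells at 1wk Dox against No Dox, 0 became 1 with array weights (*Pdk1*, log2 fold change -1.78, limma adjusted p = 0.0221), 5 without the No Dox libraries rich in stromal markers, and 1 without those poor in them, beside 5, 1199, and 80 genes in all. At 1wk WD against No Dox, 0 became 6 without the rich libraries, beside 1424 genes. The differences of responses, 0 each, became 10 with array weights and 9 without the rich libraries between ECs and β cells at 1wk WD, beside 22.7% and 15.4% of all genes (0 to 4 without 1 replicate, 4 without No Dox β cell replicate 4 and 2 without 1wk WD β cell replicate 3). They became 9 and 5 between MΦs and β cells at 1wk WD, beside 19.6% and 12.7% (0 to 1, 1 without either of the same libraries), and 8 and 7 between MΦs and β cells at 1wk Dox, beside 5.85% and 8.7%. The cause of these shifts was not tested.

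Replicate numbers did not pair the samples: over all comparisons the correlation of deviations between same-numbered samples ranged from -0.52 to 0.40, and no comparison with 3 or more pairs had every pair over 0.1. Adding 20 to each score changed the overlap or direction of 3 of 33 isoform ratio comparisons, among them *Aldoc* to *Aldoa*, for which β cells and ECs then overlapped. The unknown depth limits what can be said of low scores.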
